A study of Mus musculus with 8 samples.

Results

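The 9 genes Lss, Cyp51, Tm7sf2, Msmo1, Nsdhl, Hsd17b7, Ebp, Sc5d and Dhcr7 encode enzymes that close squalene epoxide into the first sterol ring and turn lanosterol into cholesterol. They were taken by name from the 55291 genes in the count tables, and all 9 were among the 16371 genes that passed the expression filter. The genes were selected on the CPM of treated and control libraries, after the response of cholesterol synthesis genes to the treatment had been seen in these libraries, so their differences between treated and control cells are given as a description without a test.

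Cells make cholesterol from acetyl-CoA, first along the mevalonate pathway to squalene and then, in the membrane of the endoplasmic reticulum, through a chain of ring closure, demethylation, reduction and isomerization steps. When sterol in that membrane is low, the transcription factor SREBP2 is released from its anchor and raises the genes of the whole pathway. Embryonic stem cells divide fast and need sterols for new membranes.

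The 8 RNA libraries came from 2 edited lines of mouse embryonic stem cells. In DHX35-dTAG cells the RNA helicase DHX35 carried the FKBP12 F36V degron, and in GPATCH1-dTAG cells its G-patch partner GPATCH1 did. The degron was knocked in at the endogenous gene with PITCh donors, and the compound dTAG-13 links it to the degradation machinery of the cell. Each line received DMSO or 200 nM dTAG-13 for 4 h, and each of the 4 groups had 2 libraries, so the control cells carried a tag as well. The labels name E14 cells and the growth protocol names R1 cells in medium with fetal bovine serum, LIF and the inhibitors PD0325901 and CHIR99021. The clones behind the libraries are not named, and no untagged line given dTAG-13 was among the samples, so loss of a tagged protein and other effects of the compound cannot be told apart. Nothing in the labels says that the 2 libraries of a group came from separate cultures, and their spread may be technical.

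The total counts ranged from 12014203 to 14994173 per library, and the 2 most abundant genes took between 1.27% and 20.9% of them. The first DMSO replicate of the DHX35-dTAG line lay apart, with a mean correlation of 0.976 with the other libraries against 0.988 to 0.990 for the rest. The 7 markers of pluripotent cells summed to between 3361 and 3652 CPM, the counts scaled to a common library size, and no marker of the 6 cell types checked was at 0 in every library. The summed markers of fibroblasts, primitive endoderm and trophoblast reached at most 15.0, 4.25 and 11.0 CPM. The trophoblast sum was highest in the DMSO library that lay apart, where Krt7 had 3.92 CPM, against 0.771 in the other control and 0.427 and 0.265 in dTAG-13 in that line, and it spanned 5.95 to 9.36 CPM in GPATCH1-dTAG cells. Those of mesoderm and neural cells spanned 18.3 to 24.3 and 78.3 to 89.8 CPM, and the part of any of these cells in the results was not tested. The targets' own mRNAs did not mark the treatment, since Dhx35 had 72.3 and 80.4 CPM in DMSO and 84.8 and 79.5 in dTAG-13 in its line. Gpatch1 had 7.31 and 6.90 CPM in DMSO and 7.06 and 7.20 in dTAG-13 in its line, and the degradation acts on protein, which was not analysed here. Between the lines both targets were called: Gpatch1 had 23.2 to 25.6 CPM in DHX35-dTAG cells and was lower in all 4 libraries of its own line, by a log2 difference of -1.75 (adjusted p = 3.6e-05, edgeR). Dhx35 had 58.1 to 64.9 CPM in GPATCH1-dTAG cells, all 4 libraries below those of DHX35-dTAG cells, and the log2 value was -0.40 (adjusted p = 0.041, edgeR).

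In GRCm38, the genes lie on 8 chromosomes. Lss is on chromosome 10 from 76531588 to 76557138 on the plus strand, Cyp51 on chromosome 5 from 4081145 to 4104746 (minus strand), and Tm7sf2 on chromosome 19 from 6062821 to 6068373 (minus strand). Msmo1 is on chromosome 8 from 64718139 to 64733792 (minus strand), and Hsd17b7 on chromosome 1 from 169949535 to 169969241 (minus strand). Sc5d is on chromosome 9 from 42251595 to 42264256 (minus strand), and Dhcr7 on chromosome 7 from 143823145 to 143848410 (plus strand). Nsdhl, from 72918557 to 72958514 on the plus strand, and Ebp, from 8185329 to 8193512 on the minus strand, are both on the X chromosome. The values of 3 genes are less certain, because the counting rule for overlaps is not known: Tm7sf2 shares its strand with the overlapping Vps51, Cyp51 lies opposite Akap9, and Lss lies opposite 4930483K19Rik.

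The promoters are shown first because SREBP2 is known to work on such genes together with the factor NF-Y, which binds CCAAT boxes, and with SP1, which binds GC boxes. RefSeq (GRCm38.p6) gave windows for all 9 genes, from 250 bases before to 50 after a start site, 11 windows in all since Dhcr7 has 3 starts. Both strands were searched for CCAAT, for the GC box GGGCGG and for CACNCCAC, the core of a sterol regulatory element. The 4 stretches below lie before the start site outside annotated exons. They come from Lss, Hsd17b7 and Sc5d, which had higher levels in dTAG-13 than in DMSO in DHX35-dTAG cells, and from Ebp, which did not. They are written 5′ to 3′ on the gene's own strand, and the capitals mark a CCAAT box read from the other strand.

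Lss, chr10:76531355-76531587, plus strand, from 250 to 18 bases before the start
Lss: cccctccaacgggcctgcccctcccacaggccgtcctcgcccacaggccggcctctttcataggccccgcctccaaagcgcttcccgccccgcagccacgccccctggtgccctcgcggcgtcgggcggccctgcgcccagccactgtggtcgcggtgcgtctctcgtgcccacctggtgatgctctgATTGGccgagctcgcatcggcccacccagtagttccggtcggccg
Hsd17b7, chr1:169969242-169969408, minus strand, from 203 to 37 bases before the start
Hsd17b7: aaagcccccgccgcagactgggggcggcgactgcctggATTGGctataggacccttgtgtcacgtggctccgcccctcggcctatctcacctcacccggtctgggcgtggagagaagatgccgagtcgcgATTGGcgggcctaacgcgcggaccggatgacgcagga
Sc5d, chr9:42264301-42264550, minus strand, from 250 to 1 bases before the start
Sc5d: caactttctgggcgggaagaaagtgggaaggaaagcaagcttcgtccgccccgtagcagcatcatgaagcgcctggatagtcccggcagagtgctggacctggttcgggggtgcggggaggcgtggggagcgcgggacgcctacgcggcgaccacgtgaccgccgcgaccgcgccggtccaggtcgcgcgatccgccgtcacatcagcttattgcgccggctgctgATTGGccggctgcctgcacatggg
Ebp, chrX:8193513-8193762, minus strand, from 250 to 1 bases before the start
Ebp: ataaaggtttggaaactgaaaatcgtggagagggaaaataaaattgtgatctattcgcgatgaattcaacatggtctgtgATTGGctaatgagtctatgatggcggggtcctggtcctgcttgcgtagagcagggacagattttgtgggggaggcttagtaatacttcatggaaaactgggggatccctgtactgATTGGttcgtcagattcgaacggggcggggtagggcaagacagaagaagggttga

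All 9 genes held a CCAAT box before a start site, and the nearest began between 12 bases (Hsd17b7) and 62 bases (Lss) upstream. The box stood in 9 of the 11 windows, against 37.4% of all 32851 windows and 38.0% of the 13797 windows of tested genes. Counted by gene, 43.4% of the 10835 tested genes with a window had it in any of theirs. A GC box was found in 10 of the 11 windows and in all 9 genes, against 35.7% of all windows, 62.2% of those of tested genes and, counted by gene, 68.8% of tested genes. Both boxes were found in 29.7% of tested genes. CACNCCAC was in none of the 11 windows and in 6.24% of all windows, and with AT directly before it in 0.234%. The match says only which letters stand in these windows, and the part of the boxes in the levels was not tested. Ebp and Tm7sf2 had both boxes too. Over the 8 libraries their levels had r = -0.03 and -0.37 with the mean of the other members.

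The level per kilobase of annotated exon (CPM per kb) allows genes to be compared with each other. It uses the union of all annotated exons, which understates genes with long rare transcripts. Cyp51 had the highest mean over the 8 libraries, 12.9 CPM per kb, followed by Ebp with 11.7 and Msmo1 with 10.5, and the ranges of these 3 over libraries overlapped. Lss followed with 6.57 CPM per kb, and its highest library, 8.18, lay below the lowest of Msmo1, 8.47. Nsdhl with 5.69, Sc5d with 4.54 and Dhcr7 with 3.71 CPM per kb overlapped with their neighbours in this order. Hsd17b7 with 2.43 and Tm7sf2 with 2.02 CPM per kb were the lowest and overlapped with each other, and the highest library of Hsd17b7, 2.85, lay below the lowest of Dhcr7, 2.92. Among 15986 genes ranked this way, Cyp51 was at percentile 75.4 and Tm7sf2 at 35.9. The neighbours Sqle with 22.7 and Lbr with 31.2 CPM per kb were both above the 9 genes, and Erg28 with 8.05 lay between Msmo1 and Lss.

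Together, the 9 genes had a higher summed CPM in dTAG-13 than in DMSO in both lines. It was 255 and 268 CPM in DMSO and 316 and 325 in dTAG-13 in DHX35-dTAG cells. In GPATCH1-dTAG cells it was 271 and 280.3 CPM in DMSO and 341 and 347 in dTAG-13. All 4 dTAG-13 libraries were thus above all 4 DMSO libraries on this TMM-scaled level. As a plain share of all counts, the groups of DHX35-dTAG cells overlapped, with 0.0270% and 0.0294% in DMSO and 0.0308% and 0.0279% in dTAG-13. The last of these libraries had 20.2% of its counts in the 2 most abundant genes, and the part of that in the share was not tested. In GPATCH1-dTAG cells the shares were 0.0285% and 0.0237% in DMSO and 0.0367% and 0.0366% in dTAG-13, without overlap, and the control with 0.0237% likewise had 20.9% of its counts in the 2 most abundant genes. In libraries of whole cultures, a change in the share of cells that express a gene and a change in RNA per cell cannot be told apart.

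Lanosterol synthase, Lss, folds squalene epoxide into lanosterol. It had 58.4 and 60.7 CPM in DMSO and 68.4 and 71.0 in dTAG-13 in DHX35-dTAG cells, and 67.3 and 71.0 in DMSO and 88.2 and 81.7 in dTAG-13 in GPATCH1-dTAG cells. Within each line the treated libraries were above the controls, but the controls of GPATCH1-dTAG cells were level with the treated DHX35-dTAG cells. The log2 difference, dTAG-13 minus DMSO, was 0.23 (standard error 0.09) in the DHX35-dTAG line and 0.30 (0.09) in the GPATCH1-dTAG line. With plain library totals in place of TMM scaling, which moved the median of all genes to -0.25 in the DHX35-dTAG line and to 0.17 in the GPATCH1-dTAG line, the value of Lss in DHX35-dTAG cells was -0.01, still above that median.

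Cyp51 is the cytochrome P450 enzyme that takes the first methyl group off lanosterol and the target of azole drugs in fungi. It had 47.4 and 45.9 CPM in DMSO and 61.2 and 65.3 in dTAG-13 in DHX35-dTAG cells. In GPATCH1-dTAG cells it had 48.3 and 52.1 CPM in DMSO and 64.4 and 70.1 in dTAG-13. All treated libraries were above all controls, with the lowest of the first at 61.2 and the highest of the second at 52.1 CPM. On the log2 scale the differences were 0.44 (standard error 0.09) and 0.42 (0.09), and with plain library totals 0.20 and 0.59.

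Tm7sf2 encodes a sterol reductase that acts after Cyp51 and shares its reaction with the lamin B receptor Lbr. Tm7sf2 had 10.6 and 9.26 CPM in DMSO and 11.0 and 5.75 in dTAG-13 in DHX35-dTAG cells, and 8.41 and 8.66 in DMSO and 8.80 and 8.50 in dTAG-13 in GPATCH1-dTAG cells. The treated and control libraries overlapped in both lines. Its log2 differences were -0.24 (standard error 0.25) and 0.02 (0.25), and the first was 0.16 without replicate 2 and -0.78 without replicate 1 of the treated DHX35-dTAG cells. The lowest library held 65 counts of Tm7sf2 and the others 98 to 144. Lbr had 126 and 155 CPM in DMSO and 158 and 148 in dTAG-13 in DHX35-dTAG cells, and 153 and 142 against 152 and 153 in GPATCH1-dTAG cells, with overlap in both lines.

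Msmo1, Nsdhl and Hsd17b7 act as a unit that removes the remaining methyl groups beside the hydroxyl group of the ring. Msmo1, the oxidase that opens each round, had 58.6 and 52.1 CPM in DMSO and 62.1 and 73.6 in dTAG-13 in DHX35-dTAG cells. It had 55.1 and 56.7 CPM in DMSO and 76.0 and 80.7 in dTAG-13 in GPATCH1-dTAG cells. All 4 treated libraries were above all 4 controls, with the narrowest gap, 58.6 to 62.1 CPM, in DHX35-dTAG cells. Its log2 differences were 0.29 (standard error 0.11) and 0.49 (0.11), and the first was 0.17 without replicate 2 of the treated DHX35-dTAG cells and 0.05 with plain library totals.

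Nsdhl, the dehydrogenase that releases the oxidized carbon, had 13.3 and 16.3 CPM in DMSO and 20.3 and 18.7 in dTAG-13 in DHX35-dTAG cells. It had 14.9 and 16.9 CPM in DMSO and 15.1 and 14.3 in dTAG-13 in GPATCH1-dTAG cells. The treated libraries were above the controls in the first line and overlapped with them in the second. The log2 differences were 0.39 (standard error 0.14) and -0.11 (0.14), and leaving out 1 library moved the second between -0.20 and -0.03. With plain library totals they were 0.16 and 0.06, and with TMM scaling the first was 0.26 without the DMSO library that lay apart.

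Hsd17b7, the reductase that ends each round, had 8.50 and 10.5 CPM in DMSO and 14.4 and 14.1 in dTAG-13 in DHX35-dTAG cells. It had 12.4 and 10.3 CPM in DMSO and 14.6 and 14.3 in dTAG-13 in GPATCH1-dTAG cells. All 4 treated libraries lay between 14.1 and 14.6 CPM, above all 4 controls. Its log2 differences were 0.58 (standard error 0.15) and 0.33 (0.15), and the second was 0.21 without replicate 2 and 0.48 without replicate 1 of the GPATCH1-dTAG controls. Erg28, a scaffold that holds this unit together, had 21.1 and 33.4 CPM in DMSO and 35.2 and 33.7 in dTAG-13 in DHX35-dTAG cells, and 36.6 and 38.3 against 36.1 and 38.2 in GPATCH1-dTAG cells.

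Ebp, the isomerase that moves a double bond within the ring, had 29.2 and 30.5 CPM in DMSO and 27.7 and 28.7 in dTAG-13 in DHX35-dTAG cells. It had 23.9 and 22.4 CPM in DMSO and 26.5 and 27.4 in dTAG-13 in GPATCH1-dTAG cells. The treated libraries were below the controls in the first line and above them in the second. This gave log2 differences of -0.08 (standard error 0.10) and 0.21 (0.10). With 1 library left out, the first ran from -0.11 to -0.04 and the second from 0.16 to 0.27.

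Sc5d, the desaturase that makes the direct precursor for Dhcr7, had 11.6 and 22.2 CPM in DMSO and 25.1 and 25.7 in dTAG-13 in DHX35-dTAG cells. It had 20.8 and 23.5 CPM in DMSO and 23.1 and 24.7 in dTAG-13 in GPATCH1-dTAG cells. The value of 11.6 CPM belongs to the DMSO library that lay apart, and the other 7 libraries spanned 20.8 to 25.7. The log2 differences were 0.58 (standard error 0.24) and 0.11 (0.24), and the first was 0.19 without that library and 1.14 without the other control. With each library left out in turn, the second ran from 0.02 to 0.19.

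Dhcr7 is the reductase that turns the last precursor in this order of steps into cholesterol, and its loss in people causes Smith-Lemli-Opitz syndrome. It had 17.0 and 20.1 CPM in DMSO and 25.7 and 22.5 in dTAG-13 in DHX35-dTAG cells, and 19.3 and 18.7 in DMSO and 24.4 and 24.8 in dTAG-13 in GPATCH1-dTAG cells. All 4 treated libraries were above all 4 controls. The log2 differences were 0.38 (standard error 0.12) and 0.37 (0.12).

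In DHX35-dTAG cells, the treated libraries were above the controls without overlap for 7 of the 9 genes, against 14.6% of all genes tested, and below without overlap for 1 of 9, Ebp, against 14.1%. The log2 difference was above 0 for 7 of 9 (48.5% of all genes), with a median of 0.38 against -0.01 over all genes. In GPATCH1-dTAG cells, 6 of 9 were above without overlap (21.5% of all genes), and 8 of 9 had a log2 difference above 0 (50.8%), with a median of 0.30 against 0.00. Across both lines, where the 4 treated libraries were set against the 4 controls, 4 of 9 were above without overlap (1.03%), namely Cyp51, Msmo1, Hsd17b7 and Dhcr7, and 8 of 9 had a log2 difference above 0 (48.2%), with a median of 0.34 against -0.01. Since the treatment response chose these genes, nothing is read from these shares. Without the DMSO library that lay apart, the medians were 0.26 in that line and 0.25 across both lines. With plain library totals, the log2 differences in DHX35-dTAG cells ran from -0.45 (Tm7sf2) to 0.34 (Hsd17b7), with Cyp51 at 0.20, Dhcr7 at 0.14 and Ebp at -0.32. In GPATCH1-dTAG cells they ran from 0.06 (Nsdhl) to 0.65 (Msmo1).

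**Figure D1:**
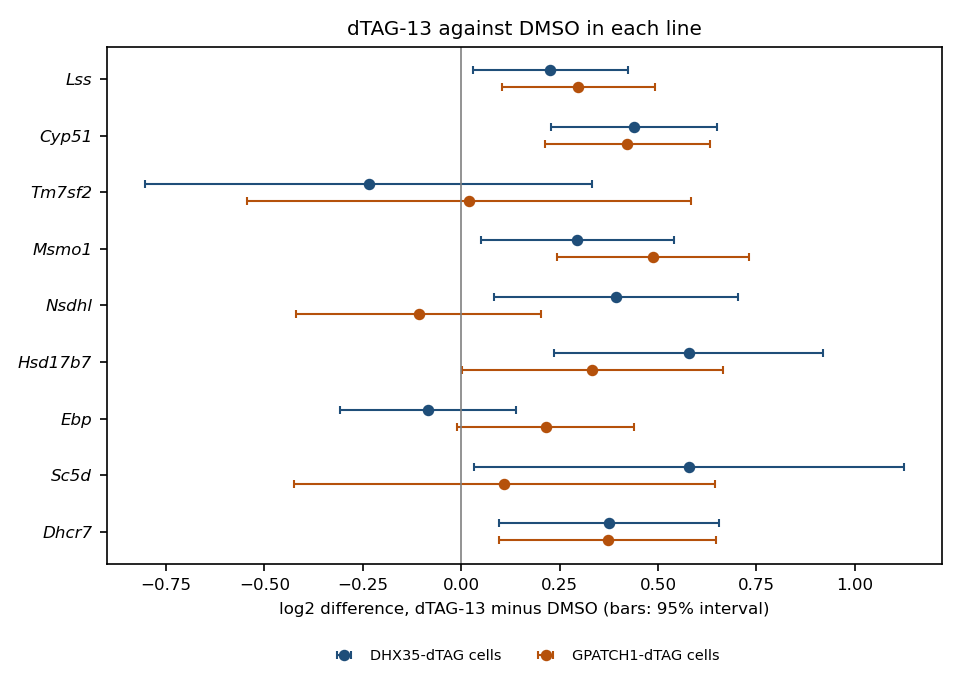
log2 difference of each of the 9 genes, dTAG-13 minus DMSO, for the DHX35-dTAG line (blue) and the GPATCH1-dTAG line (orange). Points are estimates of edgeR's fit and bars their 95% intervals. The genes were chosen on these differences, so the intervals are a description and not a test. Cyp51 and Dhcr7 have nearly the same value in both lines with TMM scaling (0.20 and 0.59 for Cyp51, 0.14 and 0.54 for Dhcr7 with plain library totals), while Nsdhl, at 0.39 and -0.11, Ebp, at -0.08 and 0.21, and Tm7sf2, at -0.24 and 0.02, lie on different sides of 0; with plain library totals Nsdhl in GPATCH1-dTAG cells is at 0.06 and Lss in DHX35-dTAG cells at -0.01.

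Over all 16371 genes, the quasi-likelihood test of edgeR, adjusted after Benjamini and Hochberg, called 0 genes (0%) on DHX35 depletion, 0 (0%) on GPATCH1 depletion and 0 (0%) across both lines at an adjusted p of 0.05. At an unadjusted p of 0.05 the same tests gave 882, 486 and 552 genes, and DESeq2 called 1, 0 and 3.

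The difference between the responses, GPATCH1-dTAG minus DHX35-dTAG cells, is built from the same within-line values that chose the genes and is given for them without a test. Over the whole table, edgeR called 0 genes (0%) for it at an adjusted p of 0.05, with 640 at an unadjusted p of 0.05, and DESeq2 called 9. It was above 0 for 4 of the 9 genes against 50% of all genes, with a median of 0.00. With all libraries and TMM scaling, that of Nsdhl had the largest size, with a log2 value of -0.50 (standard error 0.19), followed by Sc5d with -0.47 (0.34). Tm7sf2, at 0.26, was at 0.80 without replicate 1 of the treated DHX35-dTAG cells, where Nsdhl was at -0.44. Nsdhl and Sc5d moved with the choice of DMSO libraries in the DHX35-dTAG line. Without the library that lay apart, Nsdhl was at -0.36 and Sc5d at -0.08. Without the other DMSO replicate, which leaves the library that lay apart as the only control of its line, they were at -0.66 and -1.03. For Ebp the difference was 0.30 (standard error 0.14), for Cyp51 -0.02 and for Dhcr7 0.00. With plain library totals, which moved the median of all genes to 0.40, Cyp51 was at 0.39 and Dhcr7 at 0.40.

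The lines were also compared with each other as the mean over both treatments, with 4 libraries on each side. Over all genes, 109 (0.666%) were called by edgeR at an adjusted p of 0.05, and 138 by DESeq2, but none of the 9. Of the 9 genes, 6 were higher in GPATCH1-dTAG cells against 48% of all genes, with a median log2 difference of 0.10. No gene of the 9 was higher in all 4 libraries of GPATCH1-dTAG cells than in all 4 of DHX35-dTAG cells, against 5.63% of all genes. Ebp alone was lower in all 4, against 6% of all genes.

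The line difference of Lss was 0.25 on the log2 scale, with GPATCH1-dTAG cells higher (standard error 0.06, 95% interval 0.11 to 0.39), which missed the adjusted threshold (adjusted p = 0.13, edgeR). It was higher in both libraries within DMSO, where the difference was 0.21, and within dTAG-13, where it was 0.29. Without the first DMSO replicate of the DHX35-dTAG line the difference of Lss was 0.24, and without the second it was 0.27. Each of these fits leaves 1 control library in that line, so no call is read from them. Over all fits with another choice the value ran from 0.21 to 0.29.

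The line difference of Ebp was -0.22 on the log2 scale, with GPATCH1-dTAG cells lower (standard error 0.07, 95% interval -0.37 to -0.06, adjusted p = 0.22, edgeR). The difference was -0.37 in DMSO and -0.07 in dTAG-13. Without the second DMSO replicate of the DHX35-dTAG line, which leaves 1 control library there, the line difference of Ebp was -0.19. Sc5d, at 0.14 (standard error 0.17) with all libraries, was at 0.42 in that same fit and at -0.05 without the first. The other 6 genes had log2 differences between the lines from -0.15 (Nsdhl) to 0.14 (Hsd17b7), each with a 95% interval that includes 0.

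**Figure D2:**
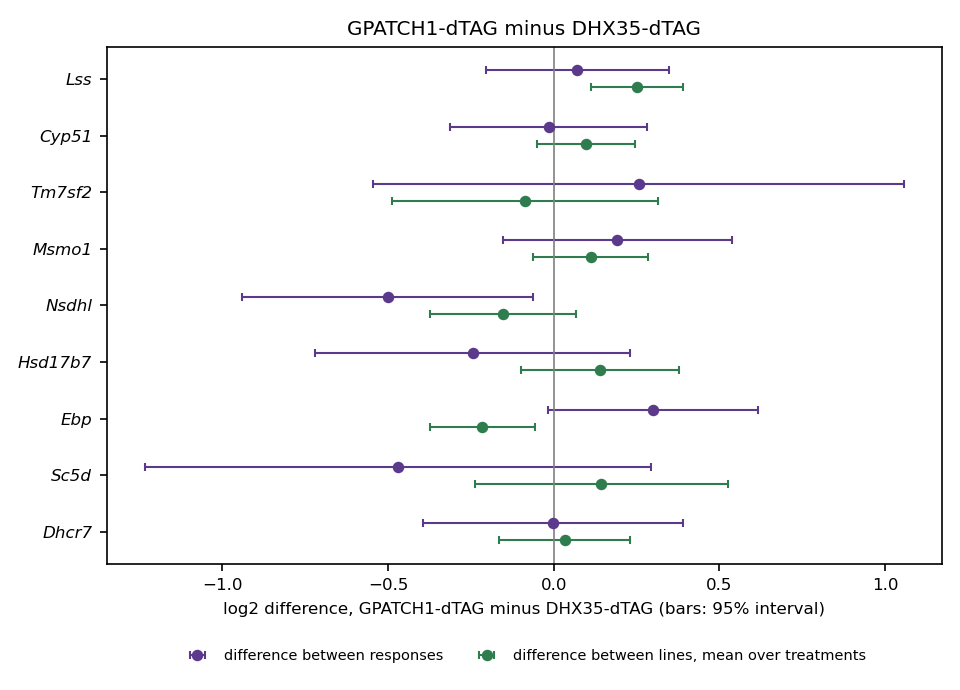
Difference between the responses to dTAG-13 (purple) and difference between the lines over both treatments (green) for each of the 9 genes, as log2 of GPATCH1-dTAG minus DHX35-dTAG cells; bars are 95% intervals of edgeR's fit. The interval of the line difference leaves out 0 for Lss (0.25) and Ebp (-0.22) before adjustment over all genes. With all libraries and TMM scaling, the difference between responses is largest in size for Nsdhl (-0.50). Over the alternatives that value ran from -0.66 to -0.09. The intervals of the difference between responses are a description and not a test.

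The genes did not all vary together over the 8 libraries. Dhcr7 followed the mean of the other 8 genes most closely (Pearson r = 0.98), then Hsd17b7 (0.88) and Cyp51 (0.86). Msmo1, Lss and Sc5d had r = 0.67, 0.64 and 0.63, Nsdhl 0.32, Ebp -0.03 and Tm7sf2 -0.37. These values describe libraries that share the 2 treatments and 2 lines. Among 8969 other genes with a mean of at least 10 CPM, the 5 most like the mean of the 9 included Vta1 (r = 0.96), Sqle (0.96), Scd2 (0.96) and Ppp1r18 (0.95). Sqle is the epoxidase that makes the substrate of Lss, and Scd2 desaturates fatty acids. Insig1, which holds SREBP2 back, ranked 6 (r = 0.94). Other genes of sterol sensing spread widely, with Srebf2 at r = 0.62, Srebf1 at 0.16, Scap at 0.10 and Insig2 at -0.56.

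Sqle had 98.4 and 115 CPM in DMSO and 139 and 135 in dTAG-13 in DHX35-dTAG cells, and 119 and 117 in DMSO and 139.8 and 142 in dTAG-13 in GPATCH1-dTAG cells. All 4 treated libraries were above all 4 controls.

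In the rest of the pathway, no listed gene passed the test for the treatment in either line. The 9 enzymes from acetyl-CoA to squalene had a median log2 difference of 0.30 across both lines, with 8 of 9 above 0 (48.2% of all genes) and 3 of 9 above the controls without overlap (1.03%). The 19 genes of uptake, sensing and efflux had a median of 0.05, with 13 of 19 above 0 and 2 of 19 without overlap. The 9 genes of fatty acid synthesis had a median of 0.17, with 8 of 9 above 0 and 2 of 9 without overlap. These lists were written with earlier results of the same libraries known. Between the lines, Abca1, which exports cholesterol, was the 1 called gene of the uptake, sensing and efflux list, higher in GPATCH1-dTAG cells by 0.48 (adjusted p = 0.012, edgeR, higher in 4 of 4 libraries), and no gene of the other lists was called.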

How the data were processed

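Per the labels and methods, ribosomal RNA was removed, human DLD-1 RNA was added as a spike-in, and stranded libraries were sequenced. The submitters' processing notes name FastQC 0.11.9, Trim Galore 0.6.6, STAR 2.7.5c, DESeq2 1.26.0 and mm10. The authors deposited raw gene counts, 1 table per library, with no normalization. The counting program, annotation and strand setting are not given in the sources used here, and the spike-in was not used here.

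Groups came from the sample labels. Counts were analysed with edgeR 4.0.16 in R 4.3.3: TMM scaling, filterByExpr, 1 term per group over all 8 libraries, glmQLFit and glmQLFTest, Benjamini-Hochberg adjustment over 16371 genes, threshold 0.05. CPM used TMM-scaled library sizes. Standard errors are the log2 difference divided by the square root of F, and 95% intervals use the fit's degrees of freedom. The common dispersion was 0.0125, a variation between replicates of 11.2%. Total counts of 12014203 to 14994173 gave 65 to 1424 counts for each of the 9 genes. The replicates differed by more than sampling noise (mean chi-square per gene 4.93 to 121). That mean uses raw totals and weighs abundant genes heavily, so it does not describe a typical gene. The pipeline was tested on simulated data.

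The members and lists were chosen with earlier results of these data known. The named genes are the 9 members, the genes of the fixed lists, and the 5 genes of at least 10 CPM most like the members' mean standardized log2 CPM (prior count 2); some of these genes are not reported here. Gene positions and exon lengths are from GENCODE M21 (GRCm38) and promoters from RefSeq (GRCm38.p6). Alternatives were DESeq2 1.42.0, its size factors in edgeR, plain library totals, no filter beyond 1 count, a minimum of 10 counts in every library, the replicate number as a block, removal of the 2 most abundant genes, only the 4 libraries of a line, only DMSO or dTAG-13 libraries, and each library left out in turn. The counts of genes without overlap were repeated without 1 library after seeing the data, but are not used, since leaving out a library cannot make separate groups overlap. Replicate numbers were not used to pair the samples in the main fit, since the correlations of their deviations between groups ran from 0.037 to 0.23. Such low values cannot exclude a batch shared by replicates of the same number.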

Additional observations from a re-analysis of the deposited data

Results flagged for a closer look

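The difference between the responses of Ebp was 0.30 (log2, GPATCH1-dTAG minus DHX35-dTAG cells). It is listed because both treated libraries lay below both controls in DHX35-dTAG cells and above both in GPATCH1-dTAG cells. The difference is given as not tested, since it is built from the within-line values that chose the gene. Over the alternatives it ran from 0.24 to 0.70, the last with plain library totals, where the median of all genes was 0.40.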

How the results depend on the processing

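The counts of called genes depended on the processing, and the cause was not tested. With plain library totals, 319 genes passed on DHX35 depletion and 10 on GPATCH1 depletion, 23 across both lines, 179 for the difference between responses and 254 between the lines. The median of the 9 genes was then 0.14, 0.47 and, for the difference between responses, 0.40, and taken relative to the median of all genes it was 0.39, 0.30 and -0.01. With no filter beyond 1 count, these counts were 345, 21, 85, 140 and 890. DESeq2 called 1, 3 and 9 genes on DHX35 depletion, across both lines and for the difference between responses. With only the 4 libraries of a line, 1 gene passed on DHX35 depletion and 127 on GPATCH1 depletion. With the replicate block, 2 genes were called for the difference between responses, and no other call changed by over 1.5 times. Between the lines, 15 genes were called in DMSO only and 15 in dTAG-13 only, where the median of the 9 genes was 0.031. With each library left out in turn, the number of called genes ran from 0 to 4949 on DHX35 depletion, 0 to 51 on GPATCH1 depletion, 0 to 2796 across both lines, 0 to 3592 for the difference between responses and 16 to 5149 between the lines. The highest of each was in the fit without the second DMSO replicate of the DHX35-dTAG line, which leaves the library that lay apart as the lone control, assumed to vary like the other groups. On GPATCH1 depletion, leaving out replicate 1 of that group gave the same 51. In the same fits the median of the 9 genes ran from 0.26 to 0.42, 0.21 to 0.35, 0.25 to 0.37, -0.11 to 0.10 and -0.024 to 0.13. Between the lines, any of the 9 genes was called only in fits that leave 1 DMSO library in the DHX35-dTAG line. Nothing is read from those calls. No result reversed past the threshold. Tm7sf2 had 65 to 144 counts per library and a standard error of 0.25 within each line, so small differences of that gene were not detectable. The part of the low counts in that error was not tested.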
